A study of Mus musculus with 6 samples.

Results

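To describe the hormone-producing cells of the intestinal epithelium in LDL-treated organoids, 10 genes were followed by name, namely the lineage transcription factor genes Neurog3 and Neurod1, the granin genes Chga and Chgb, and the hormone genes Cck, Gip, Gcg, Sct, Tac1 and Sst. Each symbol was matched to 1 Ensembl gene in the GENCODE annotation, and all 10 were found among the 55416 genes of the RNA-Seq table and were among the 18459 tested. Organoids were grown from duodenum and jejunum crypts of 3 WT C57BL/6J mice. They were kept for 5 days with 50 μg/ml LDL (low density lipoprotein) or with PBS as the control, and each mouse gave 1 library to each treatment. Both groups therefore share the same animals, strain and culture medium, and the labels give neither age nor sex.

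Enteroendocrine cells are rare secretory cells scattered among enterocytes. In the crypt, a secretory progenitor that switches on Neurog3 commits to this lineage, and Neurod1 and other factors then drive its differentiation. The mature cells store peptide hormones or serotonin in dense-core granules, whose granin proteins chromogranin A and chromogranin B are general endocrine markers. Subtypes are named for their leading product: K cells make GIP, L cells cleave proglucagon into GLP-1, I cells make CCK, S cells make secretin, D cells make somatostatin, and enterochromaffin cells make serotonin and, in part, substance P from Tac1.

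Libraries held 22061545 to 31073360 reads on genes. The LDL-treated library of mouse 1 stood apart, with reads on 35781 genes against 29285 to 32751 in the others and 7.62% of its reads on the ribosomal RNA gene Rn18s-rs5. The 10 genes together held 8630 to 20293 reads per library, or 0.0314% to 0.0653% of the reads. Values are normalized counts, which scale the reads of a library by its size factor, and 1 read was worth 0.814 to 1.24 normalized counts. Every gene of the 10 had reads in each library, from 22 reads at the lowest for Sct to 13441 at the highest for Chgb. Granins, lineage factors and all 6 hormone genes were thus detected in every library. Enteric neurons share several of these peptides. The 15 markers of enteric neurons and glia summed to 242 to 269 normalized counts with PBS and 209 to 284 with LDL, 10 had a read in every library and Ret carried the largest part (mean 142). The neuronal markers Prph and Stmn2 were at 0 and at most 3.66. Of the 4 tested genes of this list, 3 were lower with LDL and 1 higher, with a median log2 fold change of -0.28. The higher one, the glial marker S100b, was called up (1.02, 4.97 and 1.63 with PBS, 39.03, 14.6 and 32.6 with LDL, limma adjusted p = 0.0437). The part of neurons and glia in the values below was not tested. In bulk organoids, fewer enteroendocrine cells and less RNA per cell cannot be told apart.

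None of the 10 genes was called changed with LDL in the comparison of 3 LDL-treated with 3 PBS-treated libraries (limma on log2 of the normalized count plus 1). A call here means more than 1.5-fold with a Benjamini-Hochberg adjusted p-value below 0.05. In the same comparison 0.395% of all tested genes were called down and 0.878% up. At an unadjusted p-value under 0.05 there were 2 of the 10, Gip and Tac1, both lower, against 9.73% of all genes lower at that threshold. On recovered read counts, edgeR called 0 of the 10 (0.379% of genes down, 1.01% up) and DESeq2 called Tac1 down (1.89% down, 4.58% up). With the mouse as a block, which compares LDL and PBS within each animal, limma called 2 of the 10 down, Gip and Tac1, against 3.46% of all tested genes, and 0 up, against 5.68%. In the block fit 5 of the 10 were lower at an unadjusted p-value under 0.05, against 15.7% of all genes. With the block, DESeq2 and edgeR each called Tac1 alone among the 10, where DESeq2 called 2.78% of genes down and 5.33% up and edgeR 3.19% and 6.34%. Leaving out a mouse, limma with the block called 0 of the 10 without mouse 1, 1 (Tac1, down) without mouse 2 and 0 without mouse 3. Across the 10, 9 had a log2 fold change below 0, against 52.4% of all tested genes, and 6 were lower with LDL in all 3 mice, against 26.8%. The median log2 fold change was -0.29, beside -0.02 for all tested genes. All LDL-treated values lay below all PBS-treated values for 2 of the 10, against 12.3% of tested genes, and for such a gene an exact permutation test gives p = 0.1, the smallest that 3 against 3 allows. The members were chosen with earlier results known, so these counts are a description.

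**Figure D1:**
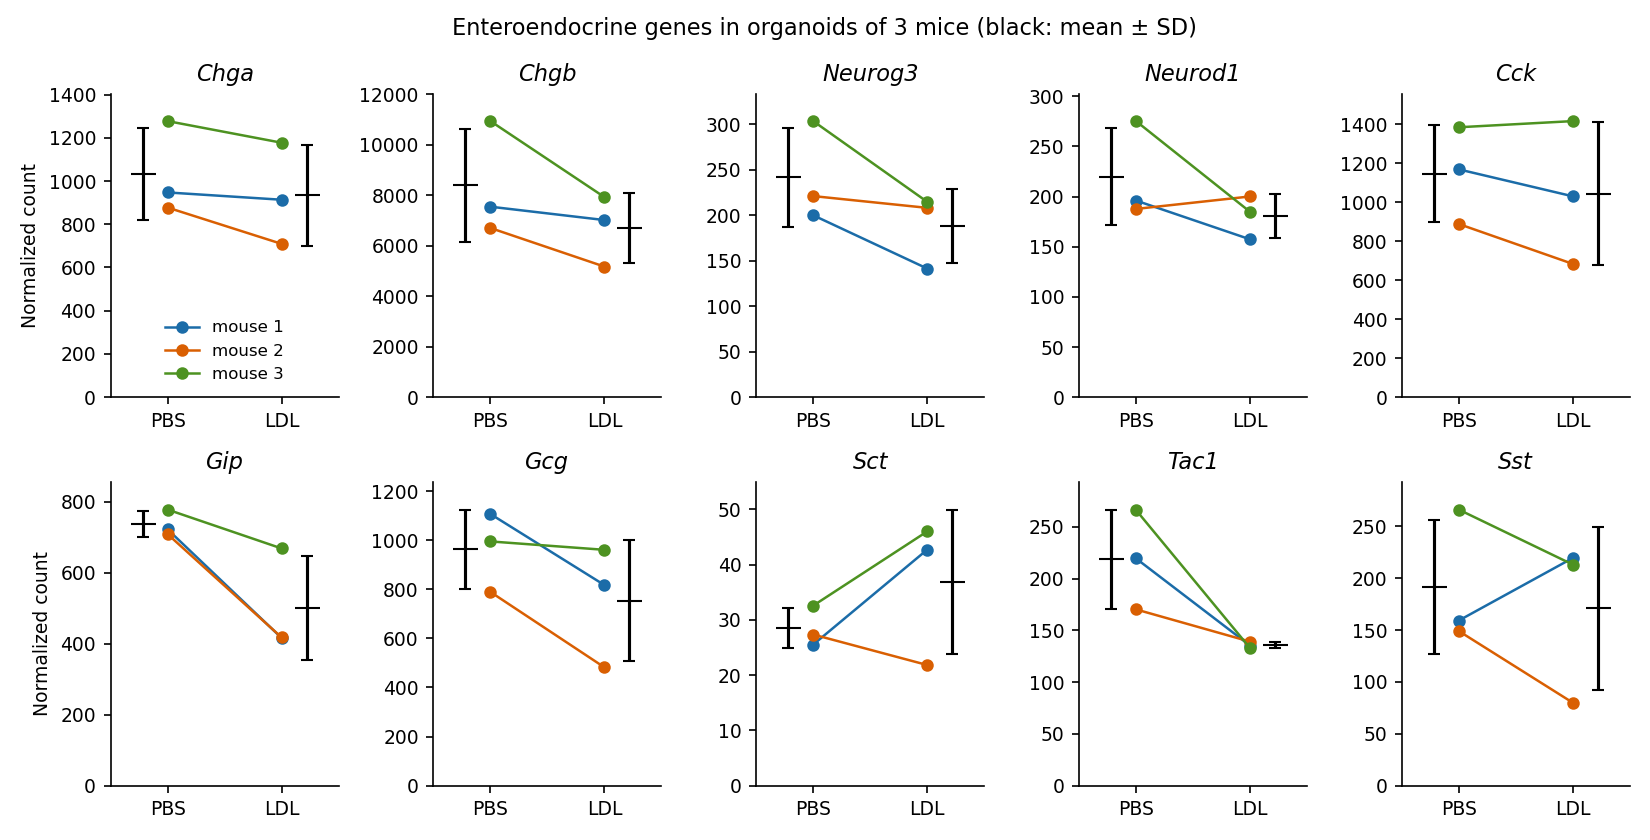
Normalized count (linear axis from 0) of each of the 10 genes in PBS- and LDL-treated organoids, with a line joining the libraries of a mouse and, in black, the mean ± SD of 3 libraries. Only the Gip and Tac1 panels show all LDL-treated values below all PBS-treated ones, and the lines of Neurod1, Cck, Sct and Sst run in different directions in different mice.

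**Figure D2:**
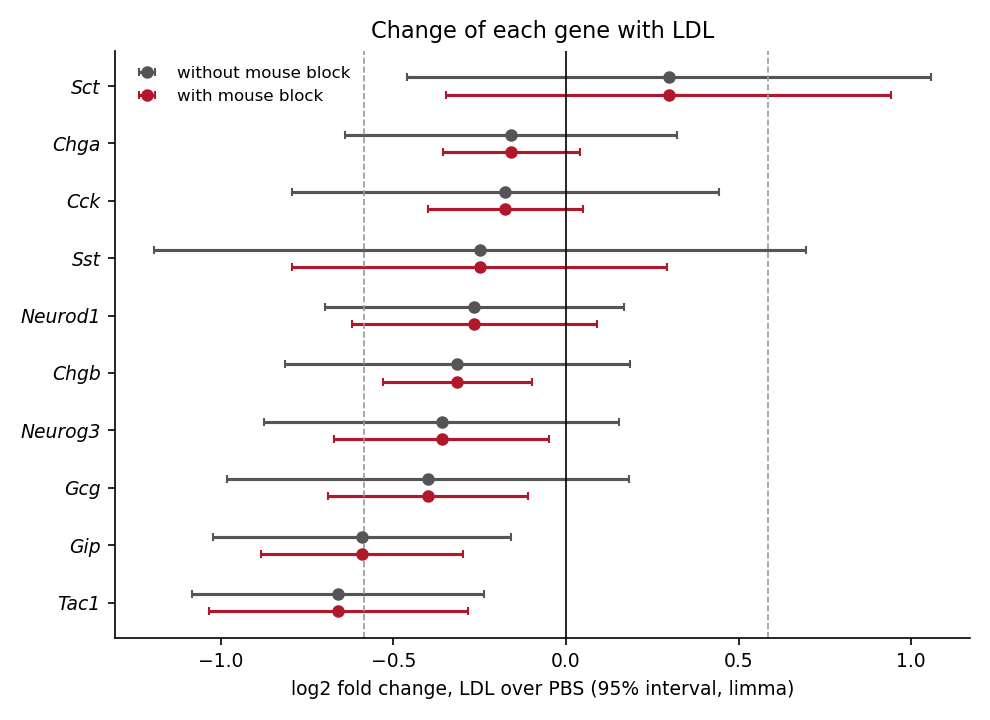
The log2 fold change of each gene with its 95% interval from limma, without (grey) and with (red) the mouse block, ordered by size, where dashed lines mark 1.5-fold. In the block fit the intervals of Tac1, Gip, Gcg, Neurog3 and Chgb lie below 0, and those of Chga, Cck, Neurod1, Sst and Sct include it.

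Neurog3 encodes the transcription factor that commits progenitors to the endocrine lineage and is transcribed only briefly. It lies on chromosome 10 of GRCm39 from 61968862 to 61970766. Its normalized count was 200, 221 and 304 in the PBS-treated organoids of mice 1, 2 and 3 and 141, 208 and 215 in the LDL-treated ones. The lowest value was the LDL-treated library of mouse 1 and the highest the PBS-treated library of mouse 3, and the groups overlapped. Relative to PBS, the log2 fold change was -0.36 with a 95% interval from -0.87 to 0.15 (limma adjusted p = 0.423), and with the mouse block the adjusted p-value was 0.115. Fam241b lies across Neurog3 on the other strand and shares 797 exon bases with it. Since the strand setting of the counting is not stated, reads of the 2 genes may not be fully separated, and Fam241b gave 180, 155 and 220 normalized counts with PBS and 106, 161 and 156 with LDL in mice 1, 2 and 3. Its log2 fold change was -0.40.

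Neurod1, a target of Neurog3 that promotes endocrine differentiation, lies on chromosome 2 from 79282865 to 79287294. Its values were 196, 188 and 275 with PBS and 157, 200 and 185 with LDL in mice 1, 2 and 3. Mice 1 and 3 had the lower value with LDL and mouse 2 the higher one. Neurod1 had a log2 fold change of -0.26 with an interval from -0.70 to 0.17 (limma adjusted p = 0.488). In the block fit without mouse 2, Neurog3 and Neurod1 had adjusted p-values of 0.0109 and 0.0269 from limma with log2 differences of -0.50 and -0.44, which did not reach 1.5-fold.

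Chromogranin B was the most abundant transcript of the 10. Chgb (chromosome 2, 132622464 to 132637904) had 7550, 6705 and 10943 normalized counts with PBS and 7020, 5175 and 7930 with LDL in mice 1, 2 and 3. Each mouse had the lower value with LDL, but the values of the mice differed enough for the groups to overlap. LDL against PBS gave -0.31 on the log2 scale with a 95% interval from -0.81 to 0.19 (limma adjusted p = 0.477) and an adjusted p-value of 0.0585 with the mouse block. Chga (chromosome 12, 102520484 to 102531300) had 947, 877 and 1277 with PBS and 914, 709 and 1177 with LDL. The LDL-to-PBS ratio of Chga within a mouse was 0.964, 0.809 and 0.922. Its log2 fold change was -0.16 with an interval from -0.64 to 0.32 (limma adjusted p = 0.730). Without the block its log2 fold change turned to 0.024 when the LDL library of mouse 2 was left out and to 0.0034 when the PBS library of mouse 3 was. With the pairs kept whole, the block fits without mouse 1, 2 or 3 gave -0.21, -0.085 and -0.18.

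The hormone genes were read beside the 250 bases before their transcription starts, because the lineage factors above bind E-boxes in promoters. RefSeq windows (build GRCm38.p6) were matched by symbol for all 10 genes. CAGATG, the E-box letters often given for neurogenin and NeuroD factors, was found on either strand in 4 of the 10 windows (Gcg with 2 copies, Cck, Sct and Tac1) and in 14.44% of 32851 windows of all genes. The wider pattern CANNTG, which includes CAGATG, was found in 10 of 10 and in 66.22% of all windows. TGACGTCA, the cyclic AMP response element, was found in Sst and Chgb and in 1.55% of all windows. These are letter matches and not measured binding. The windows of the 6 hormone genes are shown 5′ to 3′ on the gene's strand, with CAGATG and TGACGTCA in capitals, for Tac1 at chr6:7554811-7555060 (+), Gip at chr11:96024295-96024544 (+), Gcg at chr2:62483654-62483903 (-), Cck at chr9:121495695-121495944 (-), Sct at chr7:141279134-141279383 (-) and Sst at chr16:23890845-23891094 (-):
Tac1: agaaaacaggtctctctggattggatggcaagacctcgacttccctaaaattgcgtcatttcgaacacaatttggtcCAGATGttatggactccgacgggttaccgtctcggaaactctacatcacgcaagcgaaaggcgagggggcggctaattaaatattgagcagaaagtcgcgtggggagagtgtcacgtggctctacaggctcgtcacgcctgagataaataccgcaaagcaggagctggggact
Gip: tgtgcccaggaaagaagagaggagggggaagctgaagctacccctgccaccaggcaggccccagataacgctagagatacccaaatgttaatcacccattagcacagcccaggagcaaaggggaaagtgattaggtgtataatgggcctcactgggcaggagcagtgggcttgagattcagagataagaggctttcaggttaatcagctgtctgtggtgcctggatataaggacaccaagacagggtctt
Gcg: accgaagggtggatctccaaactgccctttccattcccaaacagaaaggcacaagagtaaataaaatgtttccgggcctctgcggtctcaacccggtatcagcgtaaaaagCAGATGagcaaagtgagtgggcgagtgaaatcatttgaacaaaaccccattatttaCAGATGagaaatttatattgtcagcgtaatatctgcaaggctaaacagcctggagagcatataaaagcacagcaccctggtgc
Cck: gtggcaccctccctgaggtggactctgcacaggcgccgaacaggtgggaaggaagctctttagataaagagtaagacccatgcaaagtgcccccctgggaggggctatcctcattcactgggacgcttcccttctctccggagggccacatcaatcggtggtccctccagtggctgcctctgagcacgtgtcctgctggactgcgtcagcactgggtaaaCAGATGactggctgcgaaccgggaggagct
Sct: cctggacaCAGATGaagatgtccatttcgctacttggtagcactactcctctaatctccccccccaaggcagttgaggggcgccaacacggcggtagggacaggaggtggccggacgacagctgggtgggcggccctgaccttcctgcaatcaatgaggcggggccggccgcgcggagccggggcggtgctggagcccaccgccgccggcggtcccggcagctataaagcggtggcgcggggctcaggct
Sst: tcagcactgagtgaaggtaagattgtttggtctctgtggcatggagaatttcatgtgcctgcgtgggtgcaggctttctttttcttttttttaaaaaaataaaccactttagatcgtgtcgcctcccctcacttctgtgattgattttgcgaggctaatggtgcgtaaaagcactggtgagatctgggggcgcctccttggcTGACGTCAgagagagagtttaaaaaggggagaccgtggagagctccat
The Gip window held neither capitalized motif and the Tac1 window held CAGATG 173 bases before the start, so that the 2 genes called with the block did not share it.

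Tac1 encodes the precursor of substance P and neurokinin A and is used by a subset of enterochromaffin cells. It lies on chromosome 6 from 7554120 to 7565834. Its normalized count was 219, 170 and 266 with PBS and 135, 139 and 133 with LDL in mice 1, 2 and 3. The LDL-treated values were nearly equal (136 ± 3.12, SD, n = 3) while the PBS-treated values were spread (219 ± 48.0, SD, n = 3), and the groups did not overlap. The LDL-to-PBS ratio was therefore lowest in mouse 3 at 0.499, against 0.617 in mouse 1 and 0.817 in mouse 2. On the log2 scale Tac1 differed by -0.66 with an interval from -1.08 to -0.24 (limma adjusted p = 0.114). Tac1 was called down with the mouse block (limma adjusted p = 0.0310), by DESeq2 without the block (DESeq2 adjusted p = 0.0272) and by DESeq2 and edgeR with it. The block call was lost without mouse 1 (log2 fold change -0.64, adjusted p = 0.0922 from limma) and without mouse 3 (log2 fold change -0.49, adjusted p = 0.313 from limma), and it remained without mouse 2 at a log2 fold change of -0.84.

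Gip, which encodes the glucose-dependent insulinotropic peptide released by K cells after a meal, lies on chromosome 11 from 95909127 to 95921657. Its PBS-treated values were the most even of the 10 genes, at 722, 708 and 778 in mice 1, 2 and 3 with a coefficient of variation of 4.99%. With LDL they were 416, 417 and 668. Mice 1 and 2 had LDL-to-PBS ratios of 0.576 and 0.589 and mouse 3 one of 0.859, and the groups did not overlap. For Gip the log2 fold change was -0.59 with an interval from -1.02 to -0.16 (limma adjusted p = 0.144). With the mouse block Gip was called down (limma adjusted p = 0.0191) with a change just past 1.5-fold, which is 0.58 on the log2 scale. DESeq2 and edgeR with the block gave -0.57 and -0.56 on the log2 scale, with adjusted p-values of 0.00456 and 0.0203, which fell short of the fold threshold. Leaving out mouse 1, 2 or 3 in the block fit gave -0.49, -0.51 and -0.78 (limma adjusted p = 0.0635, 0.00249 and 0.0554), none of which was called.

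Gcg, the proglucagon gene whose intestinal product is GLP-1, lies on chromosome 2 from 62304873 to 62313997. Its normalized count was 1107, 789 and 995 with PBS and 817, 482 and 961 with LDL in mice 1, 2 and 3. All mice had the lower value with LDL, by little in mouse 3, where the ratio was 0.966. The log2 fold change was -0.40 with an interval from -0.98 to 0.18 (limma adjusted p = 0.434) and the adjusted p-value was 0.0697 with the block. The incretin genes Gip and Gcg thus both had lower values in every mouse, and only Gip was called in the block fit. The difference between the 2 genes was not tested.

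Cck, the gene of the I-cell hormone that drives gallbladder emptying and pancreatic secretion, lies on chromosome 9 from 121315695 to 121324863. Its values were 1169, 888 and 1385 with PBS and 1031, 684 and 1416 with LDL in mice 1, 2 and 3. The order of the mice was the same in both treatments, and the groups overlapped widely. Cck had a log2 fold change of -0.18 with an interval from -0.79 to 0.44 (limma adjusted p = 0.772), and it was 0.098 when the LDL library of mouse 2 was left out and -0.074 in the block fit without both libraries of mouse 2. Within the block fit the interval narrowed to -0.40 to 0.05.

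Sst encodes somatostatin, which inhibits the release of other gut hormones, and lies on chromosome 16 from 23707321 to 23711733. It had 159, 149 and 266 normalized counts with PBS and 220, 80.0 and 213 with LDL in mice 1, 2 and 3. Mouse 1 had the higher value with LDL and mice 2 and 3 the lower one. For Sst the log2 fold change was -0.25 with the widest interval of the 10 genes, from -1.19 to 0.69 (limma adjusted p = 0.788). Leaving out the LDL library of mouse 2 gave 0.23, and leaving out the PBS library of mouse 3 gave 0.012.

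Sct, the secretin gene on chromosome 7 from 140858243 to 140859052, was the only one of the 10 with a log2 fold change above 0. It was also the least abundant, with 25.5, 27.3 and 32.6 normalized counts with PBS and 42.7, 21.8 and 46.0 with LDL. The LDL-to-PBS ratio was 1.67 in mouse 1, 0.798 in mouse 2 and 1.41 in mouse 3, so that the groups overlapped. Sct had a log2 fold change of 0.30 with an interval from -0.46 to 1.06 (limma adjusted p = 0.675). With 22 to 55 reads per library, counting error adds to this spread.

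Levels of different genes were compared as normalized counts per kb of the GENCODE canonical transcript. In PBS-treated organoids Chgb led with 1840 to 3002 per kb. Gip followed with 1080 to 1185, Gcg with 723 to 1013, Chga with 450 to 655 and Cck with 223 to 347, and none of these neighbors overlapped over the 3 mice. Neurog3 (113 to 171 per kb), Sst (86.5 to 155), Tac1 (71.3 to 111) and Neurod1 (68.7 to 101) overlapped each with the next, and Sct was lowest with 49.0 to 62.5. Counting the length of all annotated exons instead put Cck above Chga and Neurod1 above Sst and Tac1, and kept the first 3 and the last. Between mice, the PBS-treated library of mouse 3 had the highest PBS value for 9 of the 10 genes, Gcg being the exception. The LDL-treated library of mouse 2 had the lowest of all 6 values for 6 of the 10.

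**Figure D3:**
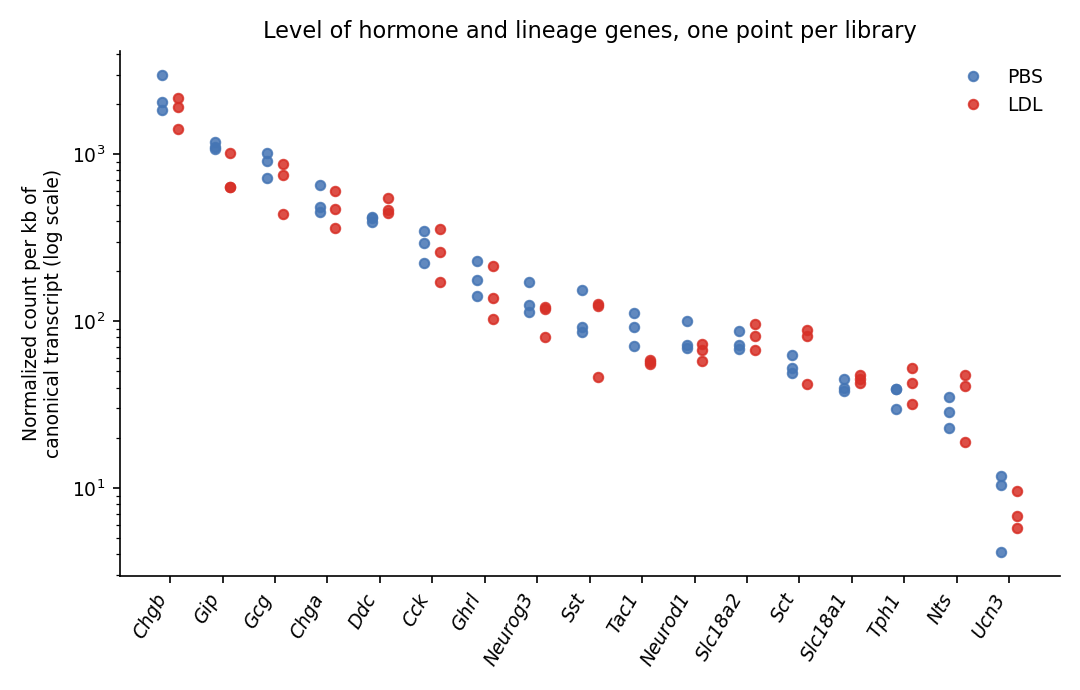
Normalized count per kb of canonical transcript (log axis) of the 10 genes and of the other hormone and serotonin genes with a PBS mean of at least 10, with 1 point for each library, PBS in blue and LDL in red. Chgb sits highest, and the 3 LDL-treated points of Tac1 lie close together below its PBS-treated points.

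The genes also varied together across libraries. Over the 6 libraries, 42 of the 45 pairs among the 10 genes had a positive Pearson r of the log2 values, and the 3 negative pairs all involved Sct. The highest values were 0.96 for Chga with Cck, 0.95 for Chga with Chgb and 0.93 for Neurog3 with Neurod1. These values describe 6 libraries that share mice and treatment. Among all tested genes, the pattern most like that of Chga was found in Strada, Ghrl and Brd3 (r = 0.98 each), of which Ghrl encodes the gut hormone ghrelin. Tac1 was most like Creb3l4, Bex2 and Lin9 (r = 0.990 to 0.996), and Bex2 is itself a gene of the granule list below. The nearest genes to the others were Fam20c, Apc2 and Glt8d1 for Chgb, Acd, Gm50107 and Hspa8 for Neurog3, Gm12856, Rfesd and Tnfrsf18 for Neurod1, Bbs1, Znhit6 and Casp16 for Cck, Gm10357, Gnmt and Whrn for Gip, Uggt2, Psd and Nlk for Gcg, and Ythdc1, Gm34868 and Brd2 for Sst, with r between 0.97 and 0.99. Sct, with a mean below 50, was not searched. With so many genes and 6 libraries, values of this size are not a sign of a shared role.

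The wider enteroendocrine program was read from lists of other hormones and serotonin synthesis, transcription factors, and prohormone processing with dense-core granules. Of their 77 genes, 58 were tested, and 1 was called down and 0 up (limma). With the block, 3 of the 58 were called down and 2 up, against 3.46% and 5.68% of all tested genes. Of the 58, 8 had an unadjusted p-value under 0.05 without the block, counted in either direction. At that threshold the share of all tested genes was computed for lower genes only (9.73%). This count, and those of single lists below that mix directions, therefore have no matching background. The median log2 fold change was -0.27, and 42 of the 58 were below 0 (52.4% of all tested genes) and 22 were lower in all 3 mice (26.8%).

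Of 23 tested transcription factor genes, 0 were called without the block (2 had an unadjusted p-value under 0.05, Isl1 and Sox4) and 1 was called down with it, Isl1. The median log2 fold change was -0.34, with 19 lower and 4 higher. Isl1, a LIM homeobox gene of several hormone-producing cell types, had 72.5, 60.9 and 61.9 normalized counts with PBS and 34.2, 40.0 and 35.1 with LDL. These groups did not overlap, and the log2 fold change was -0.82 (limma adjusted p = 0.0947, 0.0351 with the block). Sox4, a progenitor factor upstream of this lineage that is also expressed outside it, had 4713 ± 332 with PBS and 3370 ± 477 with LDL (SD, n = 3), a difference of -0.49 on the log2 scale that stayed short of 1.5-fold (limma adjusted p = 0.0977, and 0.00812 with the block). Etv1, Myt1 and Rfx6 had log2 fold changes of -0.64, -0.45 and -0.39 and were not called in either fit.

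Of 28 tested processing and granule genes, Ptprn2 was called down without the block (limma), and Ptprn2 and Peg3 were down and Cpe and Gch1 up with it. Ptprn2, a membrane protein of dense-core granules, had 684, 496 and 655 normalized counts with PBS and 335, 364 and 343 with LDL. The groups did not overlap, and the log2 fold change was -0.80 (limma adjusted p = 0.0439, 0.00629 with the block). The call was lost when the LDL library of mouse 1 or 3 or the PBS library of mouse 1 or 3 was left out (limma adjusted p = 0.0942, 0.212, 0.171 and 0.177), at log2 differences of -0.71 to -0.79. Peg3, an imprinted zinc finger gene, had a log2 fold change of -0.61 (limma adjusted p = 0.0352 with the block). Cpe, the carboxypeptidase that trims prohormones, had 192, 123 and 234 with PBS and 446, 139 and 371 with LDL, so that mouse 2 differed least. Its adjusted p-value with the block was 0.0471 from limma at a log2 fold change of 0.69. Gch1, which makes the cofactor for serotonin synthesis but is not restricted to endocrine cells, had a log2 fold change of 0.81 (limma adjusted p = 0.0201 with the block). Cplx2, a complexin of regulated exocytosis, had -0.78 and was not called in either fit. All 5 block calls of these lists, Isl1, Ptprn2, Peg3, Cpe and Gch1, were lost without mouse 3 (limma adjusted p = 0.126 to 0.292), where their log2 differences were -0.83, -0.74, -0.67, 0.69 and 0.63. Without mouse 1 only Ptprn2 was kept, and without mouse 2 Peg3 alone was lost (-0.51, short of 1.5-fold). DESeq2 with the block did not call Isl1 and Peg3 (DESeq2 adjusted p = 0.143 and 0.119).

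Of the 7 tested genes of other hormones and serotonin synthesis, 0 were called by limma with or without the block, and 0 had an unadjusted p-value under 0.05 without it. Tph1, the rate-limiting enzyme of serotonin synthesis in enterochromaffin cells, had 166, 127 and 166 normalized counts with PBS and 223, 136 and 181 with LDL, a log2 fold change of 0.22 with an interval from -0.28 to 0.71 (limma adjusted p = 0.639). Ddc, the next enzyme of that pathway, which enterocytes also express, had 0.23, and the vesicular monoamine transporter genes Slc18a1 and Slc18a2 had 0.13 and 0.10. Ghrl had -0.31, the neurotensin gene Nts 0.22 and Ucn3 -0.15. The genes Pyy, Gast, Insl5, Iapp, Uts2, Adcyap1, Vip, Gal, Npy, Penk, Pdyn and Trh had means below 10 and were not tested.

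**Figure D4:**
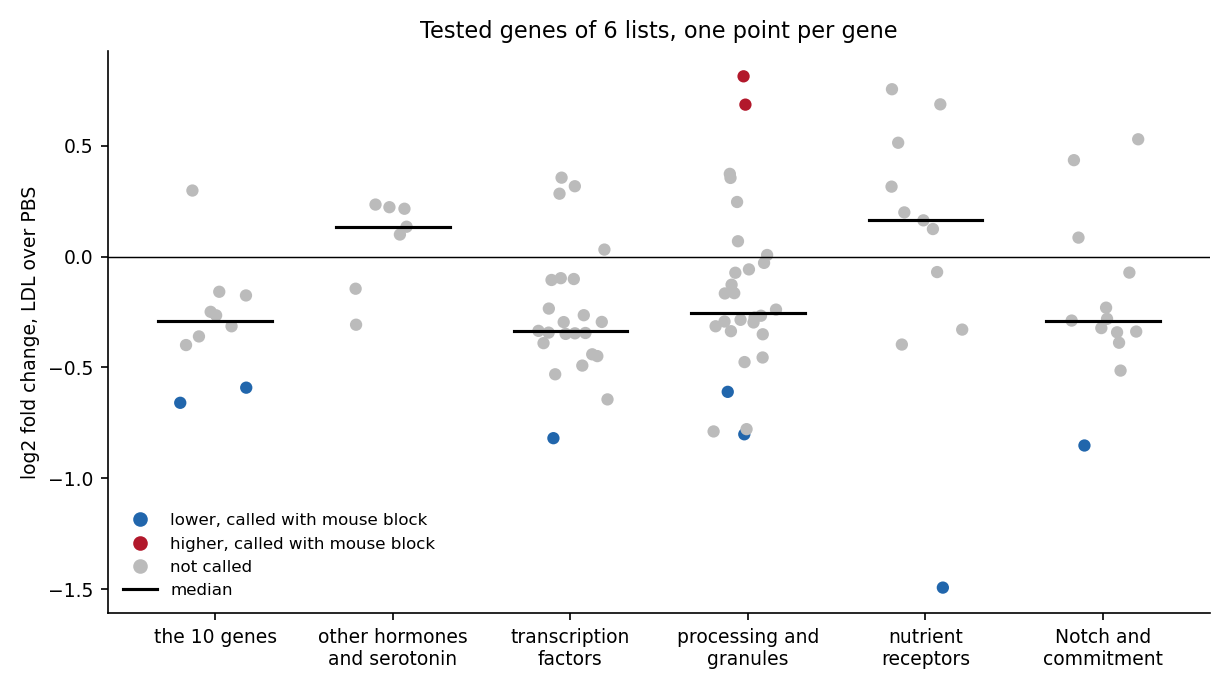
The log2 fold change of every tested gene of 6 lists, with 1 point for each gene, a black line at the median, and calls of the block fit in blue (lower) and red (higher). The medians of the 10 genes, of the transcription factors and of the granule genes lie at -0.29, -0.34 and -0.25, and that of other hormones and serotonin genes at 0.13.

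Tph1 marks enterochromaffin cells and Tac1 a subset of them, and ratios of genes within a library were computed in a comparison chosen after the values were seen. The ratio of Tac1 to Tph1 was 1.32, 1.34 and 1.60 with PBS and 0.607, 1.02 and 0.736 with LDL in mice 1, 2 and 3. It was lower with LDL in 3 of 3 mice, a mean difference of -0.88 on the log2 scale. The exact permutation test, used here for all 6 ratios, relabels 3 against 3 libraries and ignores the pairing by mouse. For Tac1 to Tph1 this exact permutation test gave p = 0.1 (two-sided), the smallest that 3 against 3 allows. Trpa1, an irritant-sensing channel of enterochromaffin cells, had 42.9, 32.3 and 48.0 normalized counts with PBS and 24.4, 15.5 and 6.69 with LDL. Its log2 fold change was -1.49 (limma adjusted p = 0.131, 0.0402 with the block), so it was called down in the block fit. Without mouse 3, whose LDL library held the lowest of the 6 values, the block call was lost (log2 difference -0.90, limma adjusted p = 0.264). The ratio of Trpa1 to Tph1 was lower in 3 of 3 mice, by -1.79 on the log2 scale (exact permutation test, two-sided, p = 0.1). Relative to Chga, Tac1 was lower in 2 of 3 mice (-0.50 on the log2 scale, p = 0.2 by the exact permutation test). The ratio of Gip to Cck differed by -0.42 (lower in 3 of 3 mice, p = 0.2 by the exact permutation test), that of Sct to Chga by 0.46 (lower in 1 of 3, exact p = 0.2) and that of Neurog3 to Chga by -0.20 (lower in 2 of 3, exact p = 0.6). None of the p-values of these 6 ratios could pass a correction.

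**Figure D5:**
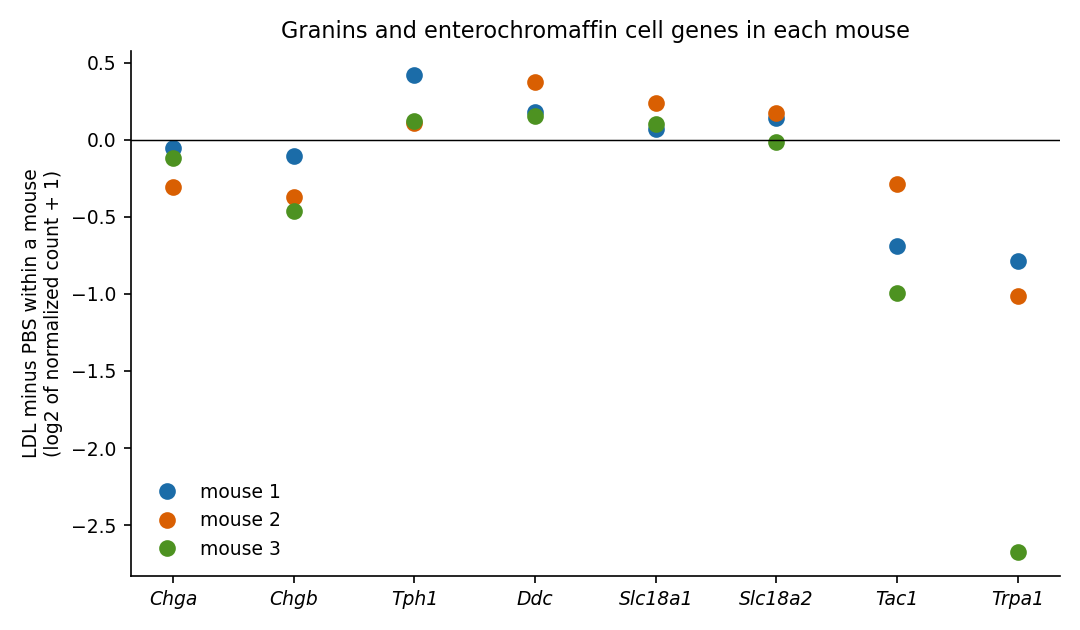
The LDL-minus-PBS difference within each mouse, as log2 of the normalized count plus 1, for the granin genes, the serotonin genes Tph1, Ddc, Slc18a1 and Slc18a2, and Tac1 and Trpa1. Tac1 and Trpa1 lie below 0 in all mice, down to -2.67 for Trpa1 in mouse 3, and so do Chga and Chgb. Tph1, Ddc and Slc18a1 lie above 0 in all mice, and Slc18a2 lies above 0 in 2 mice and at -0.013 in mouse 3.

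Receptors were read as a further list. Of 11 tested nutrient-sensing receptor and channel genes, 0 were called by limma without the block (1 had an unadjusted p-value under 0.05) and Trpa1 was called down with it. The median was 0.16. Sidt1, Abcc8 and Trpm5 had log2 fold changes of 0.51, 0.32 and 0.16 and were not called. The fatty acid receptor genes Ffar1, Ffar2 and Ffar4 had mean normalized counts of 16.3, 15.04 and 27.04 and were not called. Among receptors for the hormones themselves, 2 of 15 were tested, and Gipr, the receptor for GIP, was called down with the block at a log2 fold change of -0.90 (limma adjusted p = 0.132 without the block, 0.0404 with it). Its values were 78.6, 49.7 and 53.7 with PBS and 31.7, 25.5 and 38.5 with LDL. The block call of Gipr was lost without mouse 1 (log2 difference -0.70, limma adjusted p = 0.233) and without mouse 3 (-1.11, limma adjusted p = 0.146), and DESeq2 with the block did not call it (adjusted p = 0.130). Gip and Gipr thus both had lower values in each of the 3 mice.

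Upstream of the lineage, Notch signaling holds progenitors back from the secretory fate, and Atoh1 opens it. Of 13 tested genes of this list, 0 were called by limma without the block, where 4 had an unadjusted p-value under 0.05 in either direction. With the block 1 was called down and 0 up, against 3.46% and 5.68% of all tested genes. The gene called was Gfi1, a target of Atoh1 in secretory progenitors, with a log2 fold change of -0.85 (limma adjusted p = 0.0264 with the block). Without mouse 1 or 3 the block fit gave -0.77 and -0.82 (limma adjusted p = 0.120 and 0.242), and DESeq2 with the block did not call Gfi1 (adjusted p = 0.0994). Atoh1 itself had 247, 337 and 470 with PBS and 204, 276 and 309 with LDL, lower in each mouse, with a log2 fold change of -0.39 (limma adjusted p = 0.448, 0.0604 with the block). Jag1, Notch2 and Nrarp had 0.53, 0.43 and -0.51.

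Markers of other epithelial cells were summed in the same libraries. The summed normalized count of 12 goblet markers was 53820 to 58475 with PBS and 31520 to 37778 with LDL, and that of 11 Paneth markers was 19594 to 30534 and 14939 to 17915, with no overlap in either list. Among goblet markers Fcgbp, Agr2 and Spink4 were called down and Clca1 up by limma without the block, and 4 down and 1 up with it. Of the Paneth markers 0 were called without the block, and 4 down and 1 up with it. Beside these and the counts that follow, limma called 0.395% of all tested genes down and 0.878% up without the block. With the block it called 3.46% down and 5.68% up. For 15 enterocyte markers the sums were 48828 to 91179 and 81216 to 167201, for 13 tuft markers 413 to 553 and 333 to 677, for 13 stem cell markers 52075 to 75978 and 48410 to 57830, and for 12 proliferation markers 83803 to 85335 and 77657 to 86396, all overlapping between treatments. Without the block limma called 2 enterocyte markers up, Alpi and Fabp1, and 0 tuft, stem cell or proliferation markers. In that fit 2 of 9 tested tuft, 6 of 13 stem cell and 2 of 12 proliferation markers had an unadjusted p-value under 0.05 in either direction. The share of all tested genes at that threshold was computed for lower genes only (9.73%). With the block, 7 enterocyte markers were called up and 2 down, 1 tuft marker down, 2 stem cell markers each way and 0 proliferation markers. The 10 fetal-like markers had sums of 174 to 772 with PBS and 1620 to 15655 with LDL, and limma called 8 of 8 tested up with the block, against 5.68% of all tested genes, and 0 without it, where 8 had an unadjusted p-value under 0.05. Sums of stromal and immune markers did not exceed 356 in any library. The 10 enteroendocrine genes summed to 10724 to 16522 with PBS and 8117 to 12945 with LDL, which overlapped. The part of these other cell types in the enteroendocrine values was not tested.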

How the data were processed

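Organoids of 3 mice, each treated with LDL and with PBS, gave 6 RNA-Seq libraries. Per the labels and the paper's methods, ribosomal RNA was removed, stranded libraries were made, and reads were aligned to GRCm39 with STAR, counted per gene with featureCounts and analyzed with DESeq2; the strand setting is not given in the sources used here. The authors deposited a signal, the normalized count, in which a library's reads are divided by its size factor. Multiplying by that factor gave whole reads (within 0.01) for 100% of values, at a depth of 22061545 to 31073360 reads. Symbols, positions and lengths came from GENCODE M39, which held 54749 of 55416 identifiers.

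Normalized counts plus 1 were taken to log2 for 18459 genes (mean over libraries 10 or more), and LDL was compared with PBS by limma (trended eBayes, two-sided, all 6 libraries, Benjamini-Hochberg over all tested genes). Calls needed an adjusted p-value under 0.05 and more than 1.5-fold. The mouse was no term of this fit, because the paper names none. Libraries of a number share 1 animal identifier, and after removal of treatment means those of the same mouse correlated with r = 0.48, 0.42 and 0.46 across genes, so the same fit blocked on mouse is given where it changes a call. Alternatives were other pseudocounts (0.5 and 5), filters, scalings, DESeq2 and edgeR on recovered reads, and each library or mouse left out. In simulated data with 200 genes changed by a log2 fold change of 1.5, limma recovered 185 with no differences between mice. When mice differed by an SD of 0.5, it recovered 0 without and 185 with the block. Recovery at the smaller log2 fold changes of the 10 genes was not tested, and other SDs between mice were not tested. The 10 genes and the lists, written from general knowledge, were chosen with earlier results of these data known. Named genes were the 10, the tested genes of the other hormones list, in each further list up to 5 genes of largest change averaging 50 or more plus those called in either limma fit, and the 3 genes most alike to each member averaging 50 or more. Other genes were named after their values were seen. Of the listed symbols 2 were not matched. Some items are not reported here. Software was DESeq2 1.42.0, edgeR 4.0.16 and limma 3.58.1 in R 4.3.3, and pandas 2.3.3 and matplotlib 3.10.9 in Python 3.11.15.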

Additional observations from a re-analysis of the deposited data

How the results depend on the processing

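For the 10 enteroendocrine genes, 0 were called up in any alternative. The count called down (0) was 2 with the mouse block, 1 with DESeq2 without the block, with DESeq2 and the block, with edgeR and the block, and with the block without mouse 2, and 0 in all other alternatives. Over the fits that leave out libraries it was 0 to 1. Chgb, Neurog3, Neurod1, Gip, Gcg and Tac1 stayed below 0 in all 21 alternatives and Sct above 0 in its 20. With single libraries left out, log2 fold changes ran from -0.34 to 0.024 for Chga, from -0.43 to 0.098 for Cck and from -0.50 to 0.23 for Sst. Their directions turned without the LDL library of mouse 2, those of Chga (0.0034) and Sst (0.012) also without the PBS library of mouse 3, and that of Sst (0.071) with the block without mouse 2. The cause was not tested.

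Over all genes, the calls (162 up, 73 down) were 506 and 245 with no filter on the mean, 1048 and 639 with the mouse block, 846 and 348 with DESeq2 without the block, 984 and 513 with DESeq2 and the block, and 1171 and 588 with edgeR and the block. Leaving out 1 library or both of mouse 3 gave 0 to 1179 up and 0 to 1133 down, and the block fits without 1 mouse gave 758 and 327 (mouse 1), 1604 and 1348 (mouse 2) and 265 and 77 (mouse 3). For the 58 tested genes of the wider program (0 up, 1 down), the block gave 2 and 3, DESeq2 without the block 1 up, DESeq2 with the block 2 and 2, edgeR with the block 2 and 4, and leaving out libraries, with or without the block, 0 to 3 up and 0 to 6 down. Leaving out 1 library leaves 2 against 3, and pooled calls then rest on few degrees of freedom. Depth limits Sct, with 22 to 55 reads per library, and the hormone genes with a mean below 10.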

Other observations

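The homeobox gene Nkx6-3, which is known from the stomach and proximal gut epithelium, was well above 0 in 1 of the 3 mice. Its normalized count was 74.1 with PBS and 87.8 with LDL in mouse 3 and 1.02, 1.24, 0 and 0.909 in the libraries of mice 1 and 2. Gast, the gastrin gene, held 3 reads in the LDL-treated library of mouse 3 and none in the other 5 libraries.

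Uts2, a urotensin peptide gene with a mean too low to be tested, had 1.02, 0 and 1.63 normalized counts with PBS and 10.98, 2.73 and 12.5 with LDL in mice 1, 2 and 3, with 15 reads at most in a library.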
